A study of Mus musculus with 6 samples.

Results

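The IFIT genes are a small family of interferon-induced genes, and 5 of them, Ifit1, Ifit2, Ifit3, Ifit3b and Ifit1bl1, were followed here by their gene symbols among the 40213 genes counted in each library. All 5 had counts in every library and all 5 passed the filter on low counts, as did 12893 genes in all. Ifit1bl2, a further gene of the same locus, was outside the set and its few counts are given only beside those of its neighbours. The study exposed mouse macrophages to plastic particles. Marrow from C57BL/6 mice was turned into bone marrow-derived macrophages over 4 days, in medium with 10% serum and 25 ng/ml of M-CSF, the growth factor that drives macrophage differentiation. The 3 MNP samples then received 50 µg of polystyrene micro- and nanoplastics (MNP, particle size and volume not stated) for 24 h, and the 3 control samples received none. The labels name no genetic change, age or interferon treatment for either group. Nor do they say that replicates came from separate mice or dishes, so each p-value reflects the spread among these libraries alone, which may be technical.

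IFIT proteins are built from tetratricopeptide repeats and have no enzymatic activity of their own. Cells make them in large amounts when a type I interferon binds its receptor. The kinases JAK1 and TYK2 then activate the transcription factor complex ISGF3, which contains STAT2 and IRF9 and binds the interferon-stimulated response element (ISRE) in front of target genes. IRF3, activated by sensors of viral nucleic acid, can also switch on IFIT genes without interferon. Ifit1 binds RNA whose cap lacks ribose methylation, a mark of much viral RNA, and blocks its translation. Human IFIT3 stabilizes IFIT1, and Ifit2 limits the spread of several viruses in mice. Ifit3b and Ifit1bl1 are mouse genes that resemble Ifit3 and Ifit1.

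All the members lie in 1 cluster on mouse chromosome 19, in the order Ifit2, Ifit3, Ifit1bl1, Ifit3b, Ifit1bl2 and Ifit1, with Ifit1bl1 and Ifit1bl2 on the minus strand and the others on the plus strand. RefSeq promoter windows, which run from 250 bases before to 50 bases after each annotated start on build GRCm38.p6, were matched by symbol for 5 of 5 members. The counts were made on build GRCm39, so these coordinates name the printed sequences and nothing else. The windows were searched on both strands for the ISRE core, which is GAAA, any 2 bases and GAAA again, counting overlapping matches. The 250 bases before the start are shown for the 4 members whose window held a core, because the spacing and letters of the cores differ between them. Capitals mark the core, which reads TTTC, any 2 bases and TTTC where it lies on the opposite strand, as it does in all 4. The stretches are chr19:34640639-34640888 (plus strand) for Ifit1, chr19:34583279-34583528 (plus strand) for Ifit3 and chr19:34607707-34607956 (plus strand) for Ifit3b. That of Ifit1bl1, chr19:34601969-34602218 (minus strand), belongs to the first of its windows.
Ifit1: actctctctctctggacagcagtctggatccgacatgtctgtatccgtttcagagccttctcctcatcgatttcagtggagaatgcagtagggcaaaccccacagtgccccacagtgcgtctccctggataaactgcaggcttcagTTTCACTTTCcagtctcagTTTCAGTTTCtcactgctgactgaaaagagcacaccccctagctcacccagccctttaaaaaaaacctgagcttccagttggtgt
Ifit3: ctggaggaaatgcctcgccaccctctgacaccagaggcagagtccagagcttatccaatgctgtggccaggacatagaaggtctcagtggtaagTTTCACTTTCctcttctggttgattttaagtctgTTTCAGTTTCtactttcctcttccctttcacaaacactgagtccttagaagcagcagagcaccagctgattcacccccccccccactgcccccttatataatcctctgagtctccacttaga
Ifit3b: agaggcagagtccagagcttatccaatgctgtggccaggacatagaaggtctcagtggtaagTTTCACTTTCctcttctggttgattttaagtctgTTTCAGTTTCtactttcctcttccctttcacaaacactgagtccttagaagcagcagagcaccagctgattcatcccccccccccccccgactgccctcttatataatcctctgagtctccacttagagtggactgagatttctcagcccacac
Ifit1bl1: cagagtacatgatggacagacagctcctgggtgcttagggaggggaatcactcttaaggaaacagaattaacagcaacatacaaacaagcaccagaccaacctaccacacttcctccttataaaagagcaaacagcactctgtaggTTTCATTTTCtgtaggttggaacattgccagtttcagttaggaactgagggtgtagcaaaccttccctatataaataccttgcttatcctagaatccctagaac

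Ifit1 held 2 cores, which begin 104 and 85 bases before the start. Those of Ifit3 begin 156 and 122 bases before it, and those of Ifit3b 188 and 154 bases before it. In each of these 3 genes the core farther from the start reads GAAAGTGAAA and the nearer one GAAACTGAAA on the strand opposite to the gene. The 2 windows of Ifit1bl1 share no genome bases and each held 1 core reading GAAAATGAAA. The core begins 104 bases before the start in the first window and 23 bases before the start in the other. Neither of the 2 windows of Ifit2 held these letters. Of all 32851 windows, 3.44% held at least 1 core and 0.225% held at least 2, so the pairs in Ifit1, Ifit3 and Ifit3b are an uncommon arrangement of letters among windows of this length. The pair in front of Ifit1 lies in 245 bases that its window shares with that of Ifit1bl2, which is read from the opposite strand. The gamma-interferon activation site TTCNNNGAA was found once, in a window of Ifit2 (8.3% of all windows held it), and the antioxidant response element core TGACNNNGC in no member (12.4% of all windows). A match is a description of letters, not evidence of binding.

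**Figure D1:**
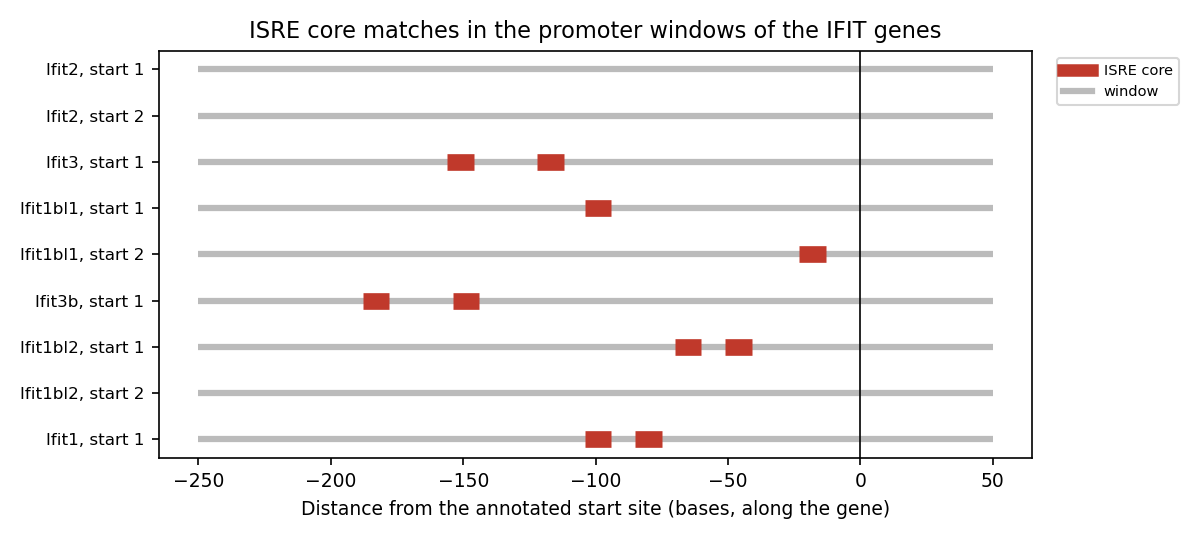
Positions of the ISRE core (red) in the RefSeq promoter windows (grey) of the 5 members and Ifit1bl2, as distance in bases from each annotated start. Ifit1, Ifit3, Ifit3b and Ifit1bl2 each have a window with 2 cores, Ifit1bl1 has 1 core in each window, and Ifit2 has none in these windows.

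Near-identical copies limit what a separate count means. Ifit3 and Ifit3b transcripts in GENCODE M21 were identical at 1663 of 1697 aligned bases (98%), and 51.2% of the 50-base stretches of Ifit3 and 44.5% of those of Ifit3b also occurred in the other. Their promoter windows matched at 258 of 260 aligned bases (99.2%). Ifit1 and Ifit1bl1 were less alike, with 76.2% identity over the alignable part, and shared only 7.13% and 6.45% of their 50-base stretches with any other gene of the locus. Only 16 stretches were common to these 2 genes. Ifit1bl1 was closer to Ifit1bl2 (90.5% identity over 2165 aligned bases), and 184 of the 186 shared stretches of Ifit1 occurred in Ifit1bl2. Ifit2 shared no such stretch with the locus or with another gene, so its count is the least open to misassigned reads. In RefSeq, Ifit1bl1 also spans Ifit3b, Ifit1bl2 and Ifit1. Neither of its promoter windows lies at the upstream end of that span. The strand setting is not given in the sources used here, so the counts of these overlapping genes cannot be fully separated.

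Library totals ran from 21283713 to 22700499 counts in MNP samples and from 20262859 to 23042146 in controls. Levels are given as CPM, counts scaled to library size with TMM factors, and 3 counts were worth 0.127 to 0.145 CPM. Over all genes tested, the second principal component, with 17.8% of the variance, placed MNP sample 1 at 32.6 and the other 5 libraries between -18.9 and 10.8. MNP samples 1 to 3 had counts for 18672, 18655 and 18240 genes and controls 1 to 3 for 24062, 20935 and 20222 genes, so control 1 stood apart from the other controls. Each member is therefore also given without MNP sample 1 and without control sample 1. Macrophage markers were abundant, with all 8 of the list detected and a summed level of 16837 to 17858 CPM in MNP samples and 18935 to 19643 CPM in controls. Most of that sum came from Lyz2, with a mean of 13152 CPM in MNP samples and 14779 CPM in controls.

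All 5 IFIT transcripts were lower after MNP exposure, by 3.97-fold to 7.50-fold. Of 12893 genes tested, 17.5% were called, 8.35% lower and 9.11% higher in MNP samples, at an adjusted p under 0.05 (edgeR quasi-likelihood test, Benjamini-Hochberg). Of the same genes, 2.29% were called and at least 2-fold lower, and 17.4% had every MNP library below every control library. All 5 members were called lower by at least 2-fold without overlap between the groups. With library totals in place of TMM factors, 71.9% of called genes were lower, against 47.8% with them. They held ranks 18 (Ifit3b), 26 (Ifit1bl1), 37 (Ifit3), 50 (Ifit2) and 96 (Ifit1) when all genes tested were ordered from the lowest log2 fold change up. The members' median log2 fold change was -2.53, against -0.01 over all genes tested. In RNA from whole cultures, fewer cells making a transcript and less of it per cell cannot be told apart.

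Ifit1, the sensor of incompletely capped RNA, had 8.65, 12.2 and 11.1 CPM in MNP samples 1 to 3, against 48.8, 38.3 and 40.0 CPM in control samples 1 to 3. MNP sample 1 lay below the other MNP samples and control 1 above the other controls, and the groups did not overlap, the lowest control being 3.14 times the highest MNP value. Ifit1 averaged 10.6 ± 1.80 CPM in MNP samples and 42.3 ± 5.65 CPM in controls (SD, n = 3 each), a log2 fold change of -1.99 ± 0.13 (SE, edgeR adjusted p = 1.98e-07). This was the smallest decrease of the 5, at 3.97-fold. It was -1.86 without MNP sample 1 and -1.87 without control sample 1.

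Ifit3, whose human counterpart is the partner that stabilizes IFIT1, had 9.86, 13.7 and 12.5 CPM in MNP samples 1 to 3 and 88.5, 62.0 and 58.4 CPM in controls 1 to 3. Control 1 stood above the other controls, and MNP sample 1 below the other MNP samples. The log2 fold change was -2.53 ± 0.16 (edgeR adjusted p = 1.27e-07), a 5.78-fold decrease, with -2.40 on the log2 scale without MNP sample 1 and -2.32 without control 1.
Its close copy Ifit3b had 1.64, 1.67 and 1.43 CPM in MNP samples, against 19.1, 8.43 and 8.36 CPM in controls. Ifit3b was thus the member with the widest spread in controls, where the SD was 51.6% of the mean and control 1 had 2.27 times the mean of the other 2. Its log2 fold change was -2.91 ± 0.32 (edgeR adjusted p = 2.55e-05), with -2.93 without MNP sample 1 and -2.40 without control 1.
Summing the counts of Ifit3 and Ifit3b removes the question of how shared reads were split. The sum was 11.5, 15.3 and 14.0 CPM in MNP samples and 108, 70.4 and 66.8 CPM in controls, with a log2 fold change of -2.58 ± 0.17 (edgeR adjusted p = 1.92e-07).

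Ifit2, an antiviral effector with the most counts of the family, had 23.6, 23.5 and 30.0 CPM in MNP samples 1 to 3, against 162, 125 and 118 CPM in controls 1 to 3. MNP sample 3 was the highest of its group and control 1 the highest of the controls. The log2 fold change was -2.39 ± 0.12 (edgeR adjusted p = 2.83e-08), a 5.26-fold decrease, with -2.33 without MNP sample 1 and -2.24 without control 1. Ifit1bl1, an Ifit1-like gene, had 1.45, 2.44 and 2.49 CPM in MNP samples and 15.9, 12.3 and 13.9 CPM in controls. Its MNP values rest on 30, 54 and 52 counts, against 332, 284 and 327 counts in controls. The decrease was 6.58-fold (log2 -2.72 ± 0.20, edgeR adjusted p = 4.96e-07), with -2.50 on the log2 scale without MNP sample 1 and -2.61 without control 1.

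**Figure D2:**
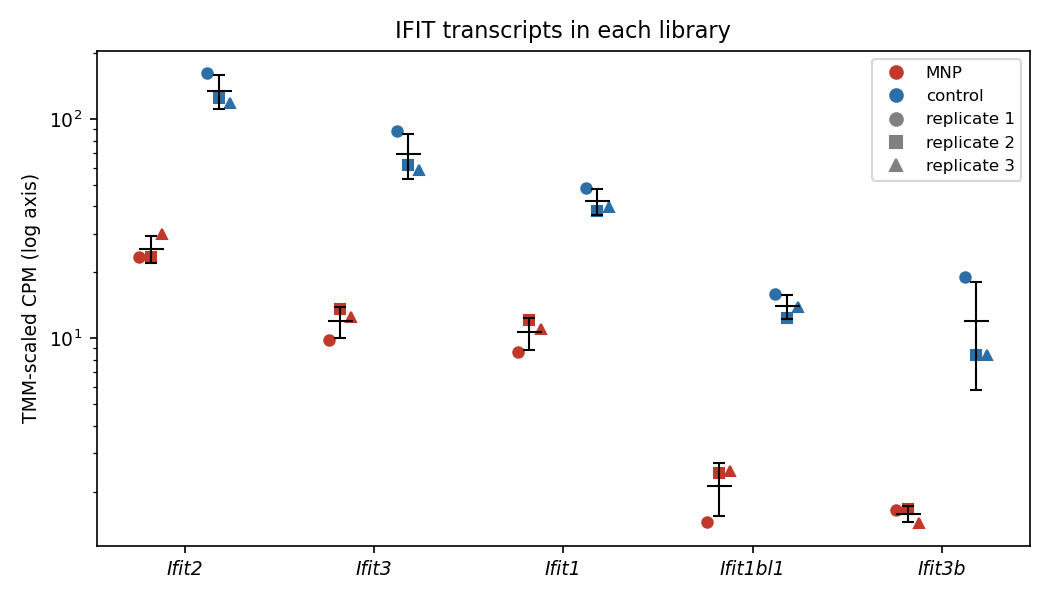
TMM-scaled CPM of each IFIT gene in the 3 MNP (red) and 3 control (blue) libraries on a log axis, with bars for the mean ± SD and marker shapes for the replicate number. In each of the 5 genes every MNP library lies below every control library, and control 1 is the highest control.

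The family as a whole held 936, 1185 and 1203 counts in MNP samples 1 to 3 and 6979, 5651 and 5636 counts in controls 1 to 3. Its summed level averaged 52.1 ± 6.24 CPM in MNP samples and 273 ± 53.3 CPM in controls (SD, n = 3 each), 5.25-fold lower in MNP samples. This sum does not depend on how reads were divided among the 5 members, but reads shared with Ifit1bl2, which is outside it, could still enter it. Without Ifit3b and Ifit1bl1 the log2 ratio was -2.35, close to the -2.39 of all 5.

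Levels were divided by the length of the longest GENCODE M21 transcript, which allows them to be compared between genes. The order of the mean levels was the same in both groups. Ifit3 reached 6.89 ± 1.12 CPM per kb in MNP samples and 39.9 ± 9.41 CPM per kb in controls, and Ifit2 6.73 ± 0.968 and 35.4 ± 6.21 CPM per kb in MNP samples and controls. The ranges of these 2 overlapped in both groups. Within libraries, Ifit3 lay above Ifit2 in every control, but below it in MNP sample 1 (5.65 against 6.19 CPM per kb) and MNP sample 3 (7.18 against 7.85 CPM per kb). Ifit1 followed with 4.01 ± 0.679 CPM per kb in MNP samples and 15.9 ± 2.13 CPM per kb in controls, below every library of Ifit2 and Ifit3 in its group. Ifit1bl1 (0.965 ± 0.265 CPM per kb in MNP samples and 6.38 ± 0.813 CPM per kb in controls) and Ifit3b (0.791 ± 0.0644 and 5.98 ± 3.08 CPM per kb in MNP samples and controls) were lowest and overlapped each other in both groups. The split between Ifit3 and Ifit3b depends on how shared reads were assigned.

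Each member's share of the family's counts was compared between the groups. Ifit1 took 19.1%, 22.8% and 19.3% of the family's counts in MNP samples 1 to 3, against 14.6%, 15.6% and 16.7% in controls 1 to 3, without overlap. Ifit1bl1 took 3.21%, 4.56% and 4.32% in MNP samples and 4.76%, 5.03% and 5.80% in controls, also without overlap. For both, the exact two-sided permutation test on the log2 ratio to the other members gave p = 0.1, the smallest value 3 against 3 samples allow, and p = 0.25 adjusted over the 5 members. With 3 samples a group this test cannot pass 0.05, so it does not say whether the members' decreases differed. Ifit2 took 49.4 ± 4.74% in MNP samples and 49.6 ± 1.13% in controls, Ifit3 23.0 ± 2.18% and 25.4 ± 1.01%, and Ifit3b 3.08 ± 0.570% and 4.21 ± 1.29% (SD, n = 3 each).

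**Figure D3:**
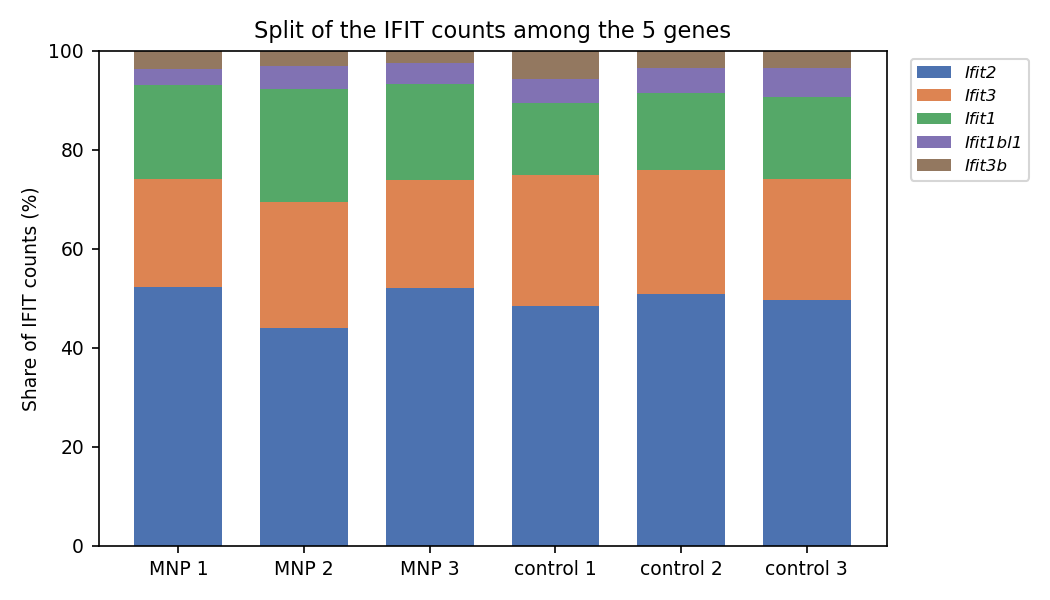
Percentage of the family's counts in each of the 3 MNP and 3 control libraries that fell to each of the 5 genes. The Ifit1 segment is larger in every MNP library (19.1% to 22.8%) than in any control (14.6% to 16.7%), while counts are not corrected for transcript length, so segments compare a gene between libraries and not genes with each other.

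The tested neighbours outside the cluster were not called lower. Lipa, the lysosomal acid lipase gene and the nearest tested gene on the Ifit2 side, had 3118, 3285 and 3499 CPM in MNP samples and 2006, 1933 and 2079 CPM in controls. It was 1.65-fold higher (log2 0.72 ± 0.06, edgeR adjusted p = 2.08e-06). Pank1, a pantothenate kinase gene on the Ifit1 side, had 17.2, 18.7 and 15.1 CPM in MNP samples and 13.5, 15.4 and 14.4 CPM in controls and did not pass (log2 0.23 ± 0.11, edgeR adjusted p = 0.179). Ch25h, which makes an antiviral oxysterol and is itself induced by interferon, had 1, 5 and 2 counts in MNP samples and 2, 2 and 10 counts in controls, too few to test. Slc16a12, a monocarboxylate transporter gene, had 7, 7 and 23 counts in MNP samples and 3, 2 and 1 counts in controls and was not tested, and Gm31417 and Gm22082 had none. Within the cluster, Ifit1bl2 had 0, 4 and 3 counts in MNP samples and 22, 31 and 16 counts in controls (log2 -3.16 ± 0.69, edgeR adjusted p = 0.00615), a fitted value that rests on very few MNP counts.

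**Figure D4:**
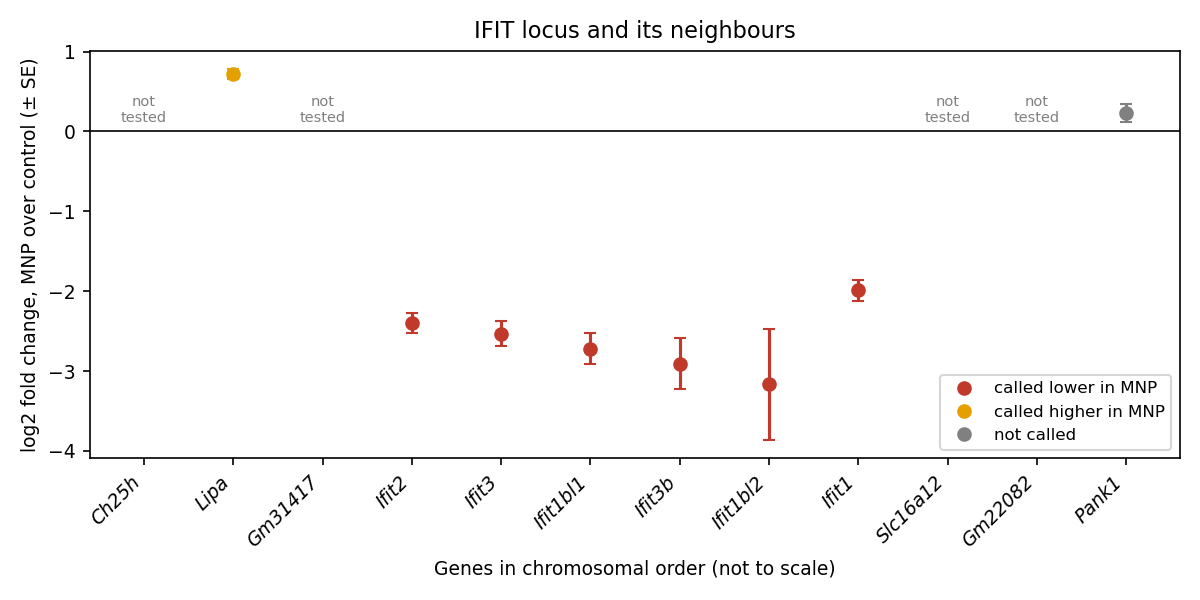
Log2 fold change, MNP over control, with its SE for genes in chromosomal order around the IFIT cluster (spacing not to scale). The 6 IFIT genes lie between -3.16 and -1.99, while Lipa is at 0.72 and Pank1 at 0.23, and genes with too few counts are marked as not tested.

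Ligands of the pathway were barely detected. Of 18 type I interferon genes, 9 had no count in any library and none passed the low-count filter. Their summed level was 0.0483 to 0.143 CPM in MNP samples and 0.127 to 0.565 CPM in controls. Ifnb1, the interferon that macrophages usually make early and named after its values were seen, had a single count, in control 1. No single interferon gene had enough counts for a test at this depth, and their sum was not tested.

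Among the receptor and ISGF3 genes, some were called lower and none higher. Stat2 (log2 -0.70 ± 0.09, edgeR adjusted p = 0.000127) and Irf9 (log2 -0.61 ± 0.09, edgeR adjusted p = 0.000244) were 1.62-fold and 1.52-fold lower. The kinases and receptor chains did not pass, with log2 fold changes of -0.25 for Tyk2, -0.14 for Ifnar1, -0.10 for Jak1 and -0.07 for Ifnar2 (edgeR adjusted p from 0.0757 to 0.524). Counts of this list depend on scaling, since 6 of its 7 genes were called lower when libraries were scaled by their totals alone. That scaling called 1941 of all 12893 genes tested lower, against 1076 (8.35%) with TMM factors.

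Sensors that act upstream of interferon also divided, with 7 of 20 tested genes lower and 1 higher (median log2 fold change -0.16). The shares over all genes tested were 8.35% lower and 9.11% higher. Those with the smallest p are themselves known as interferon-induced genes. The RNA helicase Ifih1 had 48.3, 44.6 and 51.4 CPM in MNP samples and 92.0, 99.2 and 94.7 CPM in controls. Rigi, the sensor of short double-stranded RNA, was 2.76-fold lower, Irf7, a transcription factor for interferon genes, 3.46-fold, and Dhx58, a regulator of both helicases, 2.55-fold. Irf5, another factor of this family, was the gene called higher (log2 0.26 ± 0.06, edgeR adjusted p = 0.0107), and it was not called higher with library totals alone or without MNP sample 3 or control 2. Irf3, the adaptor Mavs and the kinase Tbk1, all named after their values were seen, had log2 fold changes of -0.11 ± 0.13, -0.01 ± 0.09 and -0.02 ± 0.06 and did not pass.

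Other effectors that ISGF3 switches on were lower as well. All 25 genes of this list were called lower, with log2 fold changes between -3.25 and -0.22 and a median of -1.56, against 8.35% called lower over all genes. The list was chosen with earlier results of these libraries known, so its direction is not independent evidence. Rtp4, which restrains RNA virus replication, had 14.3, 16.0 and 18.8 CPM in MNP samples and 77.2, 63.4 and 61.5 CPM in controls. Oasl2, of the oligoadenylate synthetase family, was 3.51-fold lower, the antiviral factor Samd9l 2.10-fold and the nucleic acid sensor Zbp1 6.87-fold. The IFIT median of -2.53 lay below this list's median and inside its range. An ISRE core was found in the windows of 10 of its 18 genes that have one and in 4 of 5 IFIT genes, against 3.98% of the 9864 tested genes with a window. It was not particular to these lists. Of the genes with a window, 5 of 11 interferon gamma targets and 11 of 17 type I interferon genes also held it. Of the 393 tested genes with a core, 22.1% were called lower, against 8.39% of all tested genes with a window. IFIT members and genes of these lists are among those counted. A list of ISGF3 targets is apt to hold the element that ISGF3 binds, so these motif counts are not independent evidence.

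Genes known mainly as targets of interferon gamma moved in the same direction, with 11 of 13 called lower and none called higher (median log2 fold change -1.04). Of all genes tested, 8.35% were called lower. Gbp2, a GTPase that attacks vacuoles holding pathogens, had 10.2, 11.4 and 12.9 CPM in MNP samples and 85.9, 59.0 and 67.8 CPM in controls. Gbp3 and Gbp5 of the same family were 4.76-fold and 6.00-fold lower, and the transcription factor Irf1 2.05-fold lower. Among 9 tested negative regulators of interferon signalling, 1 fell and 1 rose. This is close to the 8.35% called lower and 9.11% called higher over all genes tested. Usp18, which blocks the receptor and is itself an ISGF3 target, had 4.45, 5.73 and 6.88 CPM in MNP samples and 17.4, 16.3 and 13.4 CPM in controls (log2 -1.46 ± 0.16). The phosphatase gene Ptpn1 rose (log2 0.38 ± 0.06, edgeR adjusted p = 0.000704). With library totals alone, 3 genes of this list were called lower and 1 higher, and 1941 of all 12893 genes tested were called lower.

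Genes for the molecules that IFIT proteins act on were mostly not called, and over all genes tested 17.5% were called. Of 5 genes for building and methylating the RNA cap, Cmtr1 encodes the interferon-induced enzyme for the ribose methylation missing from RNA bound by Ifit1. Cmtr1 had 60.3, 62.2 and 57.9 CPM in MNP samples and 81.5, 79.9 and 75.1 CPM in controls (log2 -0.39 ± 0.06, edgeR adjusted p = 0.000893). Rngtt, the capping enzyme, was narrowly called higher (log2 0.25 ± 0.08, edgeR adjusted p = 0.0481). Ramac (log2 -0.19 ± 0.10), Rnmt (-0.05 ± 0.07) and Cmtr2 (0.04 ± 0.12, and -0.05 with library totals alone) did not pass. Of this list, 1 gene rather than 2 was called in 8 of the 14 alternatives. The translation factor eIF3, which human IFIT1 and IFIT2 bind, had 0 of 14 subunit genes called by edgeR, DESeq2 or limma-voom, with 1 at an unadjusted p under 0.05 in edgeR. With library totals alone, edgeR called 1 of the 14 lower, and 1941 of all 12893 genes tested. The subunits' log2 fold changes ran from -0.17 to 0.14.

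**Figure D5:**
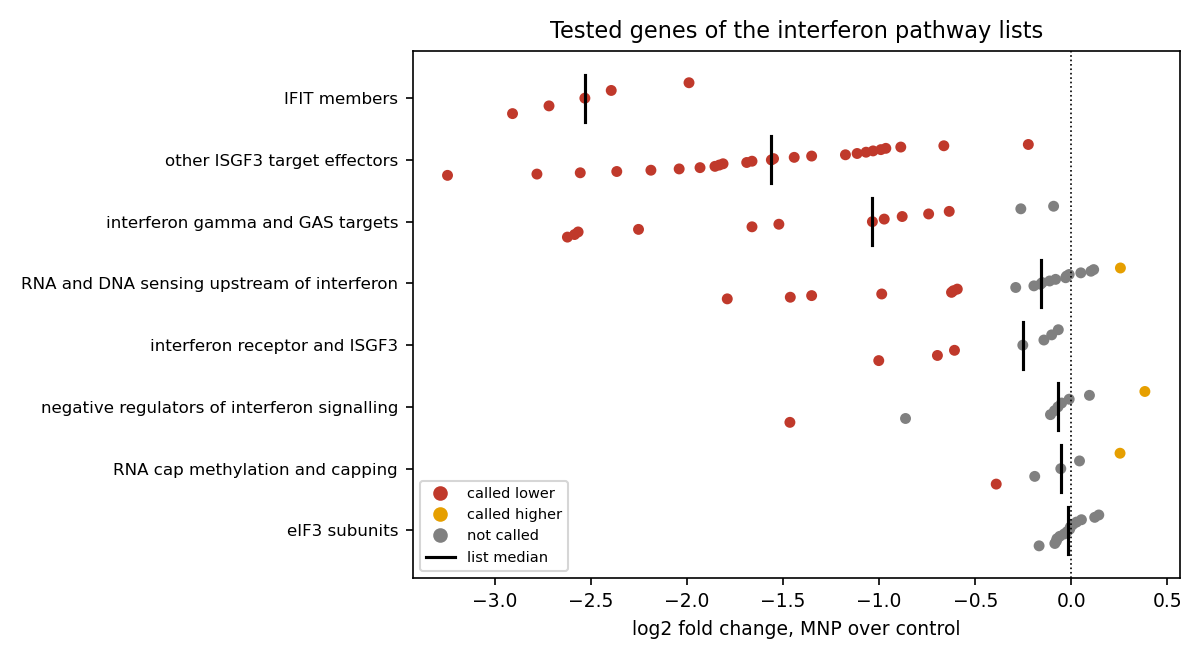
Log2 fold change, MNP over control, of each tested gene in the IFIT family and in 7 lists of pathway genes, with red for genes called lower, orange for genes called higher, grey for genes not called and a black bar for the list median. The IFIT genes lie between -2.91 and -1.99, the other ISGF3 targets have a median of -1.56, and the eIF3 subunits have a median of -0.01.

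The genes whose levels most resembled the summed IFIT level over the 6 libraries were Ifi204, Trim30a, Parp14, Slfn5 and Rtp4, with Pearson's r of 0.999 each for log2 CPM among 9537 genes with at least 5 CPM. The points share libraries and fall into 2 groups, and 7.55% of these genes reached an r of 0.9. An r ignores the size of a change. The genes named fell less, from 1.95-fold (Parp14) to 4.11-fold (Rtp4), against 5.25-fold for the summed IFIT level. Ifi204, of the PYHIN family, had 50.4, 58.6 and 57.5 CPM in MNP samples and 244, 187 and 180 CPM in controls. Within the controls, control 1 was highest for 5 of 5 IFIT genes, 21 of 25 other ISGF3 targets and 12 of 13 interferon gamma targets. The same held for 3 of 14 eIF3 subunits and for 37.6% of all genes tested. Within the MNP samples no library was lowest throughout, since MNP sample 1 was lowest for 3 of the 5 genes.

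Some markers of other cells that a bone marrow culture can hold also differed between the groups. Siglech, a defining marker of plasmacytoid dendritic cells, which are strong producers of type I interferon, had 0.387, 0.451 and 0.239 CPM in MNP samples and 1.63, 2.91 and 0.848 CPM in controls (log2 -2.30 ± 0.53, edgeR adjusted p = 0.00836). Of the 5 markers on that list 3 were tested and called lower, while none was without MNP sample 3 and 1 was without MNP sample 1, control 2 or control 3. Klk1 had no count, and the list's summed level was 61.0 to 64.9 CPM in MNP samples and 74.8 to 78.7 CPM in controls, most of it from Tcf4. Conventional dendritic cell markers summed to 1.10 to 2.51 CPM in MNP samples and 3.69 to 5.74 CPM in controls, with 1 of 4 tested called lower, and 2 without MNP sample 1. Neutrophil markers summed to 133 to 152 CPM in MNP samples and 183 to 272 CPM in controls, with 5 of 8 called lower. The share called lower over all genes tested was 8.35%. T and NK cell markers stayed at or below 1.22 CPM in MNP samples and 1.17 CPM in controls, with Cd3e, Ncr1 and Gzma at 0 throughout, B cell markers at or below 1.15 and 1.63 CPM, and stromal and erythroid markers at or below 0.918 and 2.22 CPM. The 4 macrophage markers called lower, Mertk, Fcgr1, Adgre1 and Lyz2, were at most 1.42-fold lower. The part of these cells in the IFIT decrease was not tested.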

How the data were processed

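Each library's deposited file lists a whole-number count for every gene symbol. Per the submitters' processing notes, the authors used fastp, STAR, Salmon, GATK and the mouse build GRCm39. Whether the counts are rounded Salmon estimates, and which annotation, strand setting, read length or molecular identifiers were used, was not given in the sources used here. Per the labels' protocols, total RNA went into CORALL RNA-seq V2 libraries. Titles of the samples gave the group and replicate number.

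Counts were fitted over all genes with edgeR 4.0.16 (R 4.3.3), with TMM factors, the default expression filter and quasi-likelihood testing of MNP over control. Benjamini-Hochberg adjustment covered the 12893 genes tested, and each SE was taken as the size of the log2 fold change divided by the root of the F statistic. The filter and test were tested on simulated counts. Replicate pairs differed by more than sampling noise (chi-square per degree of freedom 7.07 to 19.6), so none was taken for a library deposited again. The CPM worth of 3 counts covers counting error only.

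Alternatives were other scalings, filters and thresholds, a block for replicate number, DESeq2 1.42.0, limma-voom (limma 3.58.1), omission of each library, and sums of similar copies. Motifs and transcript identity were computed with Python 3.11.15 and Biopython 1.88. The members and lists were chosen with earlier results of these data known. Named genes are the members, up to 4 called genes with the smallest p per list (all of a list of up to 7, marker lists excepted, apart from a result that is not reported here), the 3 nearest genes on each side of the locus and the 5 genes most like the summed IFIT level.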

Additional observations from a re-analysis of the deposited data

How the results depend on the processing

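Each of the 5 IFIT log2 fold changes kept its direction and its call in all 73 recomputations, with a largest adjusted p of 0.0012 (Ifit3b, limma-voom). Leaving out each library gave -2.09 to -1.86 for Ifit1, -2.51 to -2.24 for Ifit2, -2.64 to -2.32 for Ifit3, -3.11 to -2.40 for Ifit3b and -2.84 to -2.50 for Ifit1bl1, and -2.48 to -2.22 for the log2 ratio of the summed level. Ifit3b has no value under the stricter filter. Each summed pair enters the 73 once under each of its members. Ifit1 and Ifit1bl1 summed had a log2 fold change of -2.14. Most of those counts were from Ifit1 (179 against 30 in MNP sample 1), and Ifit1 and Ifit1bl1 share few 50-base stretches. This sum therefore does not check Ifit1bl1 by itself, and it leaves out the closer copy Ifit1bl2. The difference in the Ifit2 share, -0.01 on the log2 scale, turned to 0.15 without MNP sample 2 and 0.02 without control 2, and was -0.091 without MNP sample 1.

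Over all genes, 2250 were called, 1272 of them at an adjusted p under 0.01. Leaving out libraries gave 1471 (without MNP sample 2) to 2245. Genes lower in MNP samples were 1076 of the 2250 called (47.8%), but 1941 of 2698 (71.9%) with library totals alone. Same-numbered samples deviated together little (r from -0.022 to 0.087 over 12893 genes), and only the samples numbered 1 correlated best with each other. With 3 libraries a group, these values cannot decide whether the numbers pair the samples. With a replicate block 2686 genes were called and Ifit1 to Ifit3 had log2 fold changes of -1.99, -2.39 and -2.51. Low counts limit Ifit1bl2, the interferon genes and the rarer markers.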
